A study of Caenorhabditis elegans with 4 samples.

Results

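The central 7 Mb of chromosome V held 286 of the 4141 binding regions (peaks) listed for LIN-15B in L3 larvae of Caenorhabditis elegans. A peak was taken as a member when it lay on chromosome V and its midpoint fell from 7 Mb up to, but not including, 14 Mb on WormBase WS180. The rule used position alone, and the members made up 41.4% of the 691 peaks of chromosome V and 6.91% of the list. The interval was 33.5% of the span between the first and last peaks of that chromosome. Peaks came from chromatin immunoprecipitation and sequencing (ChIP-seq) of whole hermaphrodites of strain OP184, raised at 20 °C, which carry the unc119(ed3) allele and the transgene wgIs184, a copy of lin-15B joined to TY1, EGFP and FLAG tags together with an unc119 rescue gene. The 2 immunoprecipitated samples and the 2 samples of input DNA were all of this strain and stage, so neither an untagged nor a lin-15B mutant control was part of the comparison. The tagged protein came from a transgene introduced by bombardment and, per the labels, expressed where and when lin-15B itself is, and binding was averaged over all cells of the animal. The authors' combined list has no value for either replicate, the depth of the libraries is unknown, and the spread between replicates could not be computed.

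LIN-15B carries a THAP domain, a zinc-binding fold that contacts DNA, and belongs to the synMuv B proteins. These limit vulval induction and hold germline genes silent in somatic cells, and several of them act at promoters. In C. elegans each autosome has a gene-rich central region with little recombination, flanked by arms that recombine more and carry more repeats and more methylation of histone H3 at lysine 9. The arms of chromosome V are known for large families of chemoreceptor genes. Which gene lies at each peak, and the sequence beneath it, were not analysed here.

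Strength, given here as -log10 of the authors' q-value, ran from 2.02 to 104 among the central chromosome V peaks, with a median of 6.57 (95% interval of the median from order statistics, 5.62 to 8.12) and quartiles of 3.11 and 17.8. A q-value under 0.001 was reached by 224 of the 286 (78.3%, 95% exact Clopper-Pearson interval 73.1% to 83%), beside 78.1% of the whole list. A q-value under 1e-10 was reached by 112 (39.2%, 33.5% to 45.1%), beside 36.1% of the list, and one under 1e-50 by 20 (6.99%, 4.32% to 10.6%), beside 6.54%. Among the strongest 1000 peaks, which are 24.1% of the list, were 76 members (26.6%, 21.5% to 32.1%). Each of these background shares lay within the interval of the members' share, so the section had about as many strong peaks as its number of peaks would give. Intervals cover counting error only.

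The strongest member, at 12728196 to 12728676, had a -log10 q of 104 and held place 42 in the list by q. It stood 19.1 kb from its nearest neighbour. The second, at 10897094 to 10897582, reached 102 and held place 45. A clear step down followed, to 75.2 at 9730804 to 9731666 and 74.2 at 10965438 to 10965895. Places 5 to 10 within the section went to 10807888 to 10808323 (64.8), 11000577 to 11001031 (64.4), 13789292 to 13789874 (64.2), 13564943 to 13565660 (62.2), 9546761 to 9547260 (62.1) and 10361757 to 10362176 (61.0). These values lay close together, between 61.0 and 64.8. The next 5 peaks were at 12967754 to 12968245 (56.7), 11326966 to 11327409 (56.6), 13313022 to 13313459 (55.6), 10536604 to 10537234 (55.1) and 7237072 to 7237540 (54.1). The 15 peaks were between 420 and 863 bp wide. At the other end of the range, the peak at 10598783 to 10598971 was the weakest, with a -log10 q of 2.02, and the next weakest, at 11076677 to 11076776, was also at 2.02.

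Strong peaks were found along the whole section. Of the 6 strongest, 4 lay inside 193 kb, from 10807888 to 11001031, a stretch that held 13 peaks in all. This grouping was picked out after the values were seen. Of the 20 peaks with q under 1e-50, 6 lay between 10 and 11 Mb, 4 between 13 and 14 Mb, 3 between 11 and 12 Mb, and 1 or 2 in each of the other 4 intervals of 1 Mb. Some strong peaks lay near another with q under 1e-50: the peak at 10897094, with 102, had one with 53.2 at 10894553 to 10894995, and that at 13564943, with 62.2, had one with 52.2 at 13568484 to 13568927. Other strong peaks stood beside much weaker ones. The peak at 13313022 to 13313459, with 55.6, had a neighbour 771 bp away, at 13312333 to 13312606. That neighbour had a -log10 q of 5.93, near the section's median of 6.57. These companions were picked out after their values were seen.

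The number of peaks was not level across the section. By 1 Mb interval from 7 Mb, the peaks numbered 33, 31, 37, 51, 48, 42 and 44. In windows of 500 kb the count ran from 12 to 27 with a median of 21. The first 2.5 Mb of the section held 77 peaks, which is 30.8 per Mb (exact Poisson interval, 95%, 24.3 to 38.5), while the remaining 4.5 Mb held 209, or 46.4 per Mb (40.4 to 53.2). This division at 9.5 Mb was made after the counts were seen and was not tested. The sparser stretch had a density near that of the left arm (31.2 per Mb), and its median strength was 5.58 (4.09 to 9.58) against 7.12 (5.90 to 8.50) in the denser one. The denser stretch held 17 of the 20 peaks with q under 1e-50, beside 73.1% of all members. With only 20 such peaks, an excess over the share of members was not tested and is not claimed.

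**Figure D1:**
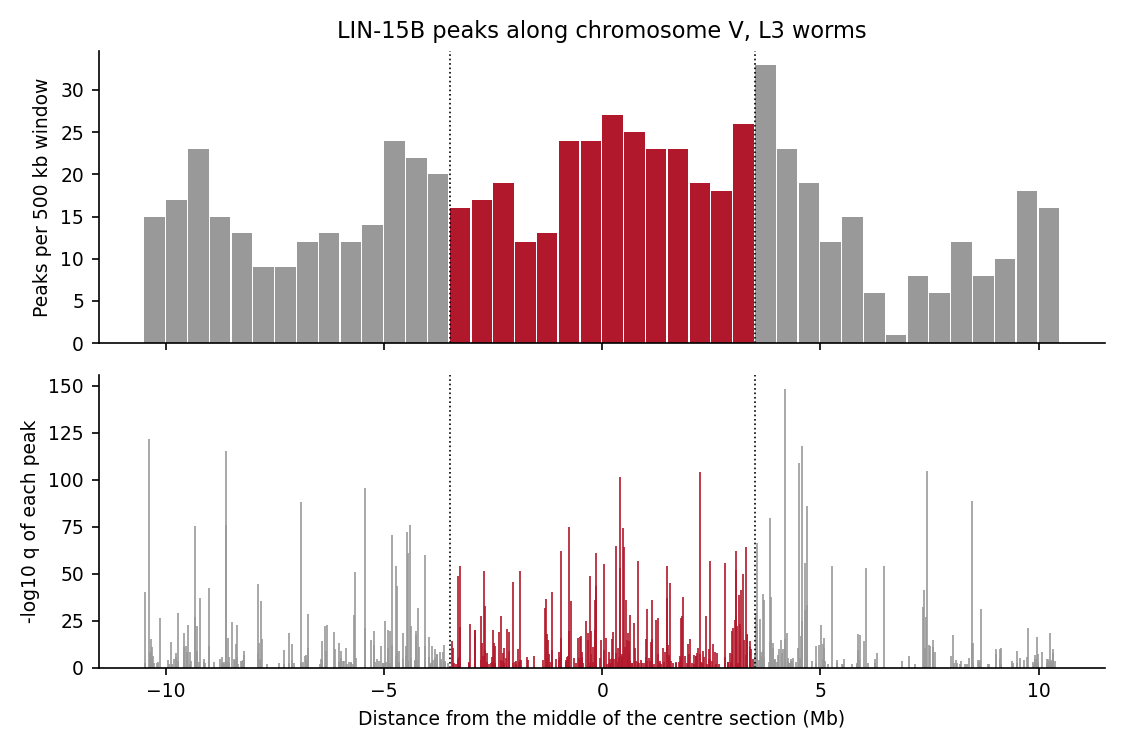
Peaks per 500 kb window (top) and -log10 q of each peak (bottom) along chromosome V, with the central section in red, the rest in grey and dotted lines at the borders; the horizontal axis is the distance in Mb from the middle of the section. Windows in the section hold 12 to 27 peaks, and the window just beyond its right border holds 33.

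At the right border the density did not drop. The 1 Mb beyond it, from 14 to 15 Mb, held 56 peaks, more than any of the 7 intervals of 1 Mb inside, and the 500 kb from 14 to 14.5 Mb held 33. From 15 to 20 Mb there were 97 peaks, or 19.4 per Mb (15.7 to 23.7). On the left side the 1 Mb before the border, from 6 to 7 Mb, held 42 peaks, also more than the first interval inside. The members nearest the left border were at 7060348 to 7060726, with a -log10 q of 14.5, and 7084702 to 7085072, with 10.6. The nearest peaks outside it were at 6970110 to 6970300 (2.36) and 6888900 to 6889131 (3.50). On the right, the last members were at 13909329 to 13909792 (9.82) and 13962063 to 13962366 (4.78), and the first peaks outside were at 14006842 to 14007155 (6.67) and 14008309 to 14008556 (3.21). The borders are those of the rule, and no break in the peaks marks the right one.

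In density the section was close to the whole list, above both arms of its own chromosome and below the middle of chromosome III. Its 286 peaks gave 40.9 per Mb (95% exact Poisson interval 36.3 to 45.9), and the peaks covered 110 kb, or 1.58% of its length. The whole list had 41.4 per Mb (40.2 to 42.7) over the spans between first and last peaks, with 1.65% covered. The left arm held 218 peaks at 31.2 per Mb (27.2 to 35.6) and the right arm 187 at 27.2 per Mb (23.4 to 31.4), with 1.18% and 1.01% of their length covered. The middle section of the other chromosomes, the central 33.3% of the span between their first and last peaks, held 234 peaks on chromosome II, at 46.0 per Mb (40.3 to 52.3), 297 on chromosome III, at 64.8 per Mb (57.7 to 72.6), and 284 on chromosome IV, at 48.9 per Mb (43.4 to 55.0). In exact conditional binomial tests of the 2 densities, two-sided and with Benjamini-Hochberg adjustment for 5 comparisons, the section had 1.31 times the density of the left arm (95% interval 1.09 to 1.57, adjusted p = 0.0047) and 1.5 times that of the right arm (1.24 to 1.82, adjusted p = 3.6e-05). That the centre was denser than the arms was known when the section was chosen, so these 2 tests are no independent support for it. Against the middle section of chromosome III the ratio was 0.630 (0.534 to 0.744, exact binomial adjusted p = 1.6e-07). Against that of chromosome IV it was 0.835 (0.706 to 0.987, exact binomial adjusted p = 0.040), and against that of chromosome II it was 0.887 (0.744 to 1.06, exact binomial adjusted p = 0.18), which did not pass the threshold of 0.05. The comparisons with II, III and IV were also chosen with earlier results of these data known. All p-values describe the placement of peaks in this 1 list and treat peaks as independent. When counts in 500 kb windows were compared instead, in a quasi-Poisson fit that allows for clustering, the ratio to chromosome IV was 0.838 (0.698 to 1.01) and not called. The ratios to the left arm (1.31, 1.05 to 1.64), the right arm (1.55, 1.09 to 2.22) and chromosome III (0.631, 0.523 to 0.761) were still called in that fit. Their adjusted p in the quasi-Poisson fit was 0.034, 0.034 and 0.00026. Only whole windows were counted, which held 203, 171 and 259 peaks of these sections. Counts varied most in the right arm, with a variance 5.50 times the mean.

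Density was also compared among strong peaks alone. Among the strongest 1000 peaks of the list, the section held 76 and the left and right arms 43 and 33, which gave ratios of 1.77 (1.2 to 2.63, exact binomial adjusted p = 0.0053) and 2.26 (1.48 to 3.51, exact binomial adjusted p = 0.00025). These repeat the known comparison with the arms on a part of the same peaks, so they are no independent support either. The share of peaks that were among the strongest 1000 was 6.85 percentage points above that of the left arm and 8.93 above that of the right arm, and neither difference was called (Fisher's exact test, adjusted p = 0.23 and 0.13), so the larger ratios were not shown to differ from those over all peaks. Against the middle section of chromosome IV, which held 61, the ratio rose to 1.03 (0.728 to 1.47) and was no longer below 1. The share among the strongest 1000 was 5.09 percentage points above that of chromosome IV (-1.93 to 12.1). That difference was not called (Fisher's exact test, adjusted p = 0.28), so a change from the ratio over all peaks was not shown here either. Against chromosome III, with 85, the ratio was 0.585 (0.424 to 0.807, exact binomial adjusted p = 0.0017). This ratio too rests on a part of the same peaks.

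By share, strong peaks did not set the section apart from any of the 5 sections in the test made. Peaks with a -log10 q above the list's median of 6.30 made up 51.7% of the members (148 peaks), beside 50% of the list. The share was 43.6% in the left arm and 43.3% in the right arm. The differences were 8.17 percentage points (95% Newcombe interval -0.628 to 16.8) and 8.43 points (-0.771 to 17.4), both with an adjusted p of 0.19 in Fisher's exact test, two-sided. The middle sections of chromosomes II, III and IV had 54.7%, 57.9% and 50.4%, and the differences from these were -2.95 points (-11.5 to 5.64), -6.16 points (-14.1 to 1.90) and 1.40 points (-6.77 to 9.54), with adjusted p of 0.67, 0.26 and 0.80 in Fisher's exact test. The intervals for the arms reach to under 1 point below zero and that for chromosome III to 1.90 points above it, while those for II and IV extend over 5 points to either side. Median strength was 4.90 (4.28 to 6.30) in the left arm, 4.85 (4.22 to 6.67) in the right arm and 7.62 (5.91 to 8.96), 8.77 (7.0 to 9.80) and 6.34 (5.48 to 7.53) in the middle sections of II, III and IV.

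**Figure D2:**
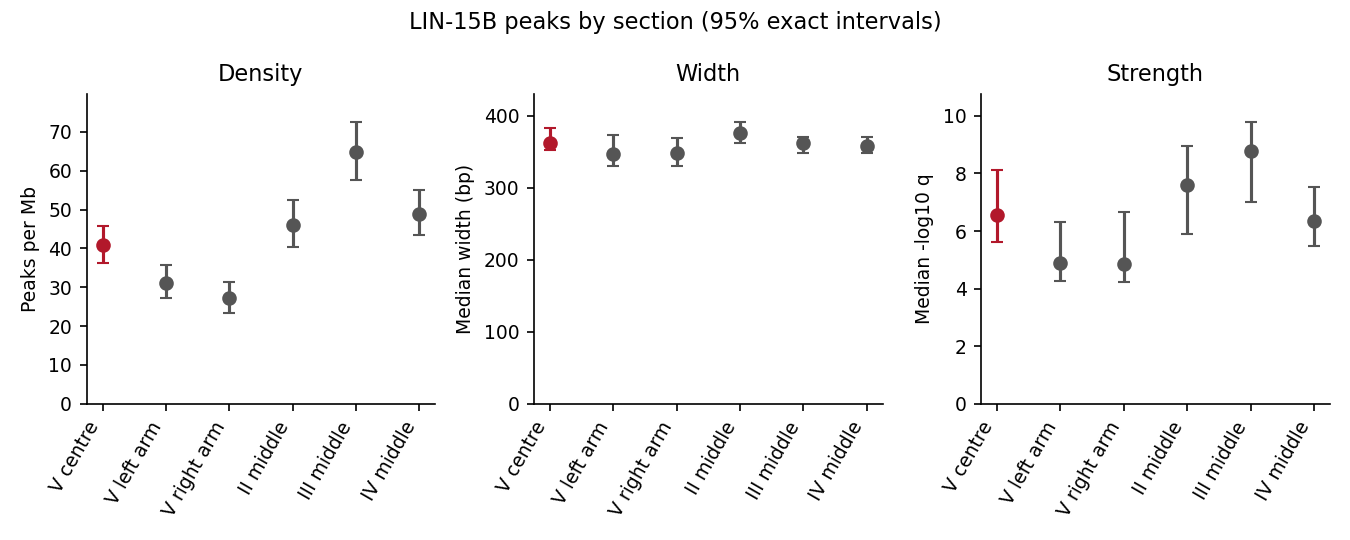
Peaks per Mb, median width in bp and median -log10 q in the chromosome V centre (red) and the 5 sections it was compared with (grey); points are values and bars are 95% exact intervals (Poisson for density, order statistics for medians). The centre of V has 40.9 peaks per Mb, between the V arms and the middle section of chromosome III, while median widths lie between 347 and 376.5 bp in all 6 sections.

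The typical distance between neighbours differed little between the centre and the arms of chromosome V, despite the difference in density. Midpoints of the 285 neighbouring pairs inside the section were 15.9 kb apart in the median (11.8 to 18.3), with quartiles of 3.71 and 35.1 kb. The median was 15.9 kb in the left arm (10 to 18.4) and 15.7 kb in the right arm (10.2 to 21.1). The mean was 24.2 kb in the section, and 32.1 and 36.9 kb in the arms. Long stretches without a peak were fewer in the centre than in the arms, and about as frequent as in the whole list. Distances over 100 kb numbered 9 of 285 in the section (3.16%, 1.45% to 5.91%), 16 of 217 in the left arm (7.37%, 4.27% to 11.7%) and 20 of 186 in the right arm (10.8%, 6.69% to 16.1%). In the whole list they were 150 of 4135 (3.63%), a share within the section's interval. Together such distances took up 18.3% of the distance between first and last member in the section, 37.9% in the left arm and 49.1% in the right arm. Of the 70 windows of 100 kb in the section 5 were empty, against 15 of 69 in the left arm and 14 of 68 in the right arm. These counts of long stretches were looked at after the medians were seen and carry no test.

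In the middle sections of the other chromosomes long stretches were rarer still. There were 4 distances over 100 kb on chromosome II (of 233), 1 on chromosome III (of 296) and 3 on chromosome IV (of 283), and the median distance was 13.9, 9.45 and 13.2 kb. The 3 longest stretches without a peak in the central section of V were 7237541 to 7435018 (197 kb), 8936594 to 9128577 (192 kb) and 8785886 to 8936124 (150 kb). The last 2 of these adjoin at a single peak of -log10 q 6.21, at 8936125 to 8936593. The longest one begins right after one of the 15 strongest peaks of the section. All 3 lay in the sparser part before 9.5 Mb, which held 7 of the 9 distances over 100 kb; as that part was marked off by its low counts, this restates them.

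**Figure D3:**
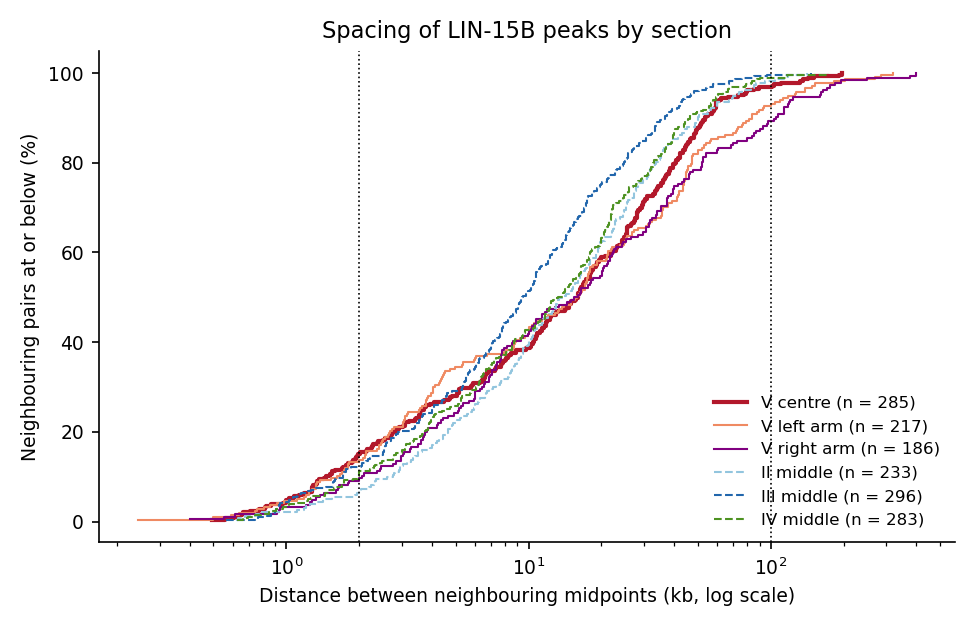
Share of neighbouring pairs of midpoints (%) at or below each distance (kb, log scale) in the V centre, both V arms and the middle sections of II, III and IV; dotted lines mark 2 and 100 kb. The curve of the V centre crosses its middle near those of the arms, at 15.9 kb, but has fewer pairs over 100 kb (3.16% against 7.37% and 10.8%).

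Close neighbours were more frequent in the section than in the middle section of chromosome II, at a distance of 2 kb, and the other 4 comparisons were not called. Midpoints of 43 of the 285 pairs were within 2 kb (15.1%, 11.1% to 19.8%), beside 11.0% of all neighbouring pairs of the list. Within 5 kb the share was 28.1%, beside 26.8% of the list, 34.6% in the left arm and 29.1% on chromosome III. At 2 kb the share was 13.8% in the left arm, 9.68% in the right arm, 12.16% on chromosome III and 11.0% on chromosome IV, and these 4 differences were not called in Fisher's exact test (adjusted p between 0.23 and 0.70). The differences were 1.26 percentage points from the left arm (95% Newcombe interval -5.13 to 7.35), 5.41 from the right arm (-0.884 to 11.2), 2.93 from chromosome III (-2.68 to 8.57) and 4.13 from chromosome IV (-1.44 to 9.71). On chromosome II the share was 6.87% (16 of 233), and the difference of 8.22 points (2.78 to 13.5) passed (Fisher's exact test, two-sided, adjusted p = 0.017). That call did not hold with a distance of 5 kb (6.18 points, adjusted p = 0.32 in Fisher's exact test) or 1 kb (2.77 points, adjusted p = 0.53 in Fisher's exact test), and among the stronger 2070 peaks of the list the shares were nearly equal, with 6 of 147 pairs in the section and 6 of 127 on chromosome II. The call at 2 kb did hold from edge to edge (8.45 points, Fisher's exact test, adjusted p = 0.037). It also held without regions under 50 bp (8.27 points, Fisher's exact test, adjusted p = 0.017) and with V from 6 to 15 Mb (7.49 points, Fisher's exact test, adjusted p = 0.021).

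Of the 286 members, 78 (27.3%) had another member within 2 kb. The share was 24.3% in the left arm, 17.6% in the right arm, and 13.7%, 22.2% and 20.4% in the middle sections of II, III and IV, and was not tested. They formed 35 groups, of which 28 were pairs, 6 had 3 peaks and 1 had 4. The group of 4 ran from 11075507 to 11079351, an extent of 3.85 kb, with -log10 q from 2.02 to 18.7. A pair of groups of 3 lay almost side by side, at 9544205 to 9547260, which includes the ninth strongest member with a -log10 q of 62.1, and at 9549015 to 9550567, where the strongest reached 6.47. These belong to the fullest 100 kb window of the section, 9500001 to 9600000, with 10 peaks. The windows 11000001 to 11100000 and 13600001 to 13700000 followed, with 9 each. The group at 7435019 to 7437868 was weak throughout, with a highest -log10 q of 2.96, and was chosen for mention after this was seen. The 3 closest pairs had midpoints 492, 559 and 609 bp apart, at 9549015 to 9549778, 12038235 to 12039126 and 10002731 to 10003666. In the first and second of these pairs both peaks had -log10 q under 7, and in the third the values were 2.13 and 17.0. The smallest distance from edge to edge in the section was 205 bp, and that of the whole list was 202 bp.

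Peaks with a close neighbour had a lower median strength than the rest of the section, a difference that was not tested. The 78 members with another within 2 kb had a median -log10 q of 5.18 (3.36 to 6.48) and a median width of 339 bp. The 96 members whose nearest neighbour was 2 to 10 kb away had 8.07 (5.62 to 13.5) and 387 bp, and the 112 members further than 10 kb from any other had 7.67 (5.58 to 10.4) and 367.5 bp. The middle group held 11 of the 20 peaks with q under 1e-50, which is 11.5% of its members. The others held 4 and 5 (5.13% and 4.46%), beside 6.54% of the whole list. This share was also highest in the 2 to 10 kb class in the left arm (7.69%) and on chromosome IV (6.77%). It was not in the right arm or on chromosomes II and III, and these shares were not tested. In the same order of distance the medians were 3.65, 6.51 and 4.73 in the left arm, 4.05, 5.82 and 5.01 in the right arm and 5.11, 6.15 and 7.5 in the middle section of chromosome IV, so that the closest class was also the lowest there. It was not the lowest in the middle sections of chromosomes II (7.5, 9.75 and 5.87) and III (9.02, 9.31 and 8.27). Differences between sections in this respect were not tested, and regions that a caller splits from one broad signal cannot be told apart here from separate sites.

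**Figure D4:**
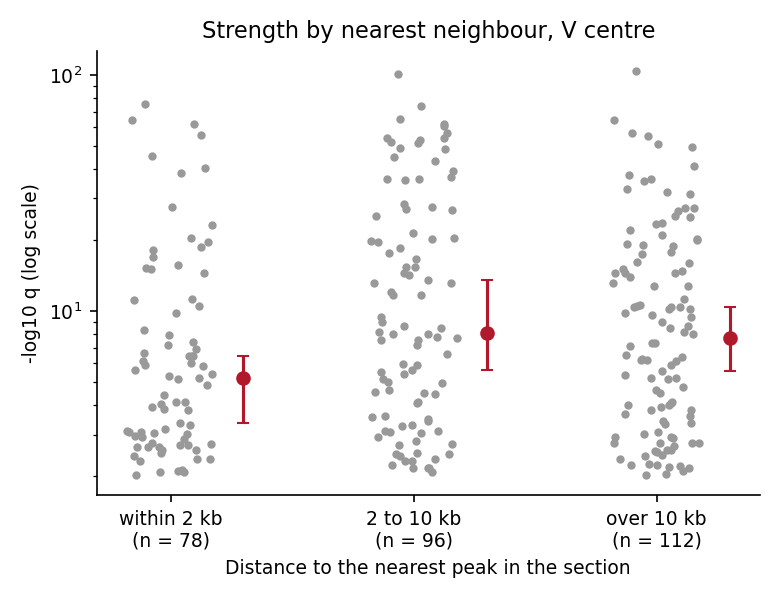
-log10 q (log scale) of each of the 286 peaks in the chromosome V centre by distance to the nearest other peak of the section; grey points are peaks, and red points with bars are medians with 95% order-statistic intervals. The median is 5.18 for peaks with a neighbour within 2 kb and 8.07 and 7.67 for the others, and each class spans weak and strong peaks.

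Widths in the section were ordinary for the list. They ran from 41 to 1111 bp with a median of 362 bp (352 to 383) and quartiles of 300 and 444 bp. The median was 347 bp in the left arm, 349 bp in the right arm, and 376.5, 362 and 358.5 bp in the middle sections of II, III and IV. Peaks wider than the list's median of 367 bp made up 49.0% of the members, beside 49.8% of the list. In Fisher's exact test no difference from the 5 sections was called (adjusted p between 0.54 and 0.80). The differences ran from -5.32 percentage points against chromosome II (95% Newcombe interval -13.8 to 3.29) to 5.64 against the right arm (-3.55 to 14.6). Extreme widths were scarce: 1 member exceeded 1000 bp (0.350%, 0.00885% to 1.93%), beside 1.40% of the list, and 1 was under 50 bp (0.350%), beside 0.869% of the list. Those single peaks allow no statement of a difference, as the first interval includes 1.40%.

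The widest member, at 7727863 to 7728973, spanned 1111 bp and had a -log10 q of 27.6. The next were at 7803989 to 7804928 (940 bp, 33.1), 10341874 to 10342782 (909 bp, 36.3), 9730804 to 9731666 (863 bp, 75.2) and 9343942 to 9344745 (804 bp, 40.3). Of these 5, only the fourth was also among the 15 strongest. The narrowest were at 13439845 to 13439885 (41 bp), 13609969 to 13610048 (80 bp), 11076677 to 11076776 (100 bp), 11674076 to 11674176 (101 bp) and 11309061 to 11309207 (147 bp). All 5 were weak, with -log10 q between 2.02 and 2.74.

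Median strength rose with width between 50 and 450 bp. The 11 members of 50 to 199 bp had a median -log10 q of 2.20, and the single narrower member had 2.74. The median -log10 q was 2.75 among the 59 members of 200 to 297 bp, 5.96 among the 75 of 298 to 367 bp, and 19.1 among the 72 of 368 to 450 bp. It was 13.1 among the 67 members of 451 to 1000 bp, and the single wider member had 27.6. In the whole list the medians of the classes from 368 to 450 bp, from 451 to 1000 bp and above were 14.3, 14.5 and 28.3, the last of them over 58 peaks. From the first to the second of these classes the median also fell in the left arm (13.1 to 11.9), III (22.5 to 16.6) and IV (13.9 to 13.7). It rose in the right arm (12.7 to 15.4) and II (14.9 to 21.2). Across the 286 members Spearman's correlation of width with -log10 q was 0.701 and Pearson's 0.438. Over the whole list these were 0.682 and 0.374. Both measures come from the same peak call and the same reads, so the correlation describes the list and not binding. The 62 members with q of 0.001 or more (21.7%) had a median width of 247 bp, against 390 bp for the others. The whole list was alike, with 21.9% of its peaks in that class and medians of 258 and 390 bp.

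**Figure D5:**
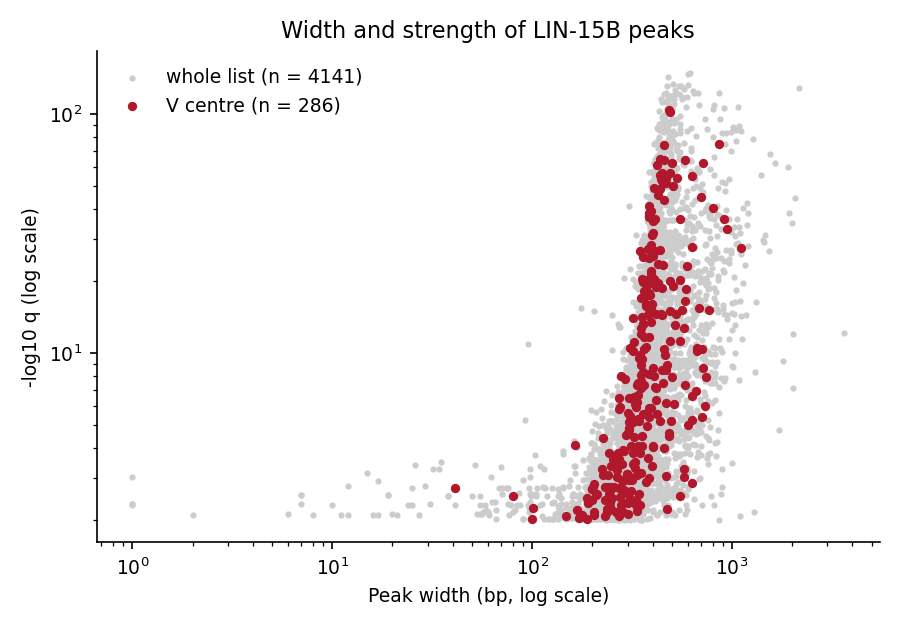
Width (bp, log scale) and -log10 q (log scale) of the 286 peaks of the chromosome V centre (red) over all 4141 peaks of the list (grey). Members follow the cloud of the whole list, with 1 peak over 1000 bp and 1 under 50 bp.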

How the data were processed

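Peaks of tagged LIN-15B were taken from 1 combined list that the authors deposited for 4 samples (2 of immunoprecipitated DNA, 2 of input DNA). Coordinates refer to WormBase WS180 and peaks were called with PeakSeq, per the file headers. The only measure per region is a q-value from the authors, at most 0.00991. No aligner, setting or way of combining replicates was given in the sources used here. Per the labels' protocols, worms were fixed in 2% formaldehyde and the tagged protein recovered with an antibody against GFP; the lysis step names embryos, although every sample is labelled L3.

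Position was the midpoint, width the number of bases, and strength -log10 of the q-value. No region was left out. The arms of V and the middle sections of II, III and IV ran over the span from first to last peak. Densities were compared by exact conditional binomial tests and shares by Fisher's exact tests, both two-sided, with Benjamini-Hochberg adjustment over the 5 sections within each of 4 measures. The tests were tried on simulated counts drawn independently, so how they behave on clustered peaks was not checked. Regions named are the 15 with the smallest q, the 5 widest and narrowest, and the 3 closest pairs and longest stretches. The 3 fullest 100 kb windows and the 2 regions nearest each border on either side are named too. Also named, outside this rule, are the 2 weakest peaks, the group of 4, the pair of groups of 3, and others said to be picked afterwards. The section, measures and tests were chosen with earlier results of these data known. Python 3.11.15, scipy 1.17.1 and statsmodels 0.14.6 were used. Since no genome or annotation of WS180 was used here, peaks were not assigned to genes or sequences.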

Additional observations from a re-analysis of the deposited data

How the results depend on the processing

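No paired analysis was possible because the regions come from the replicates combined, and so no replicate could be left out either. Of 110 alternative values, 90 kept their direction and their side of the threshold of 0.05, 14 changed direction, 5 were no longer called and 1 became called; many of the 90 were called neither before nor after. The density ratio to both arms and to III was called under all 7 alternatives. For the arms this is no independent support, as their lower density was known when the section was chosen. For III it is none either, as the alternatives are cuts of the same list and earlier results were known. The density ratio to IV (0.835) was not called among the stronger 2070 peaks (0.858), with V taken from 6 to 15 Mb (0.872) or in 500 kb windows (0.838), and turned to 1.03 among the strongest 1000 peaks. Close neighbours against II (8.22 points) were not called within 5 kb (6.18) or 1 kb (2.77) and turned to -0.643 among the stronger 2070 peaks, with 6 pairs. They stayed called from edge to edge (8.45), without regions under 50 bp (8.27) and with V from 6 to 15 Mb (7.49). Within 10% of each section's mean spacing, an alternative chosen after seeing the data, the difference from II stayed called (10.6) and that from III became called (10.1). Those from the left and right arms became -6.53 and -0.922. Uncalled differences in close neighbours also turned: from the left arm within 5 kb (-6.49), from edge to edge (-0.999) and with V from 6 to 15 Mb (-0.497), and from III within 5 kb (-0.984) and among the stronger 2070 peaks (-4.11). So did uncalled shares of wide peaks against IV above the upper quartile (-0.167), against the left (-2.89) and right arm (-6.48) among the stronger 2070 peaks and against III with V from 6 to 15 Mb (-0.155), and the share of strong peaks against IV with V from 6 to 15 Mb (-0.0917). The cause was not tested. With depth unknown, a stretch without a peak may still be bound below the authors' threshold.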
